A study of Solanum phureja with 20 samples.

Results

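A set of 222 array spots was lower in diploid than in monoploid root tips of one potato ploidy series and had a small difference or no complete value in leaf. R is the mean log2 ratio, diploid over monoploid, of the 4 root arrays that paired the monoploid with a diploid. L is the same mean over the 4 such leaf arrays. Members had R at or below -0.6, which is at least 1.52-fold lower in the diploids. Their L was missing or lay between -0.35 and 0.3, and their annotation held no gene symbol or only LOC symbols, the placeholder names of genes without a standing name. The 222 spots came from 32448 in all, of which 15881 had an R, and belonged to 155 of 15360 clones. The members were thus chosen by the measured values R and L, and levels in those contrasts are a description and carry no test.

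The study compared 4 lines of Solanum phureja, a cultivated potato species. All derive from 1 monoploid with 12 chromosomes by chromosome doubling: the tetraploid (4x), the diploids 2xR3 and 2xR5, and the monoploid (1x). Root RNA came from growing root tips 7 days after planting and was amplified, and leaf RNA came from growing leaflets 20 days after planting. Plants grew under a 15 h day at 23.5 °C with nights of 9 h at 15.5 °C, in 50% relative humidity. There were 8 root arrays with 2 RNA samples of each line (replicates 4 and 5) and 12 leaf arrays with 3 (replicates 1 to 3). Each array compared 2 lines in 2 dyes. The labels do not state the direction of the deposited ratio, which was read as Cy5 over Cy3. If it was the reverse, every sign below turns. Whether the RNA samples of a line came from separate plants is not in the labels, and the spread behind each p-value may be technical. All lines descend from 1 monoploid, so each ploidy level above it rests on 1 or 2 doubled lines.

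Doubling the chromosomes of a plant leaves the gene sequence as it was and raises the number of copies of every gene together, so a gene whose share of the RNA shifts departs from the common scaling. Root tips hold the meristem, the elongating cells behind it and the root cap. In bulk tissue of this kind, fewer cells of a type and less RNA per cell cannot be told apart. Ratios within an array are relative to the other clones, and say nothing of the absolute amount of RNA.

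Few members have a name. Of the 222 spots, 212 carried no symbol and 10 carried a LOC symbol, from 6 clones of 5 genes: LOC102577790 (2 clones), LOC102577909, LOC102581985, LOC102584296 and LOC102587142. No role is given for them here. Members without a symbol are called by spot number. Of the 155 clones, 67 had both duplicate spots among the members and 88 had 1. In these 88 the other spot lacked a root value in 29, had an R above -0.6 in 50, and reached the root limit but not the leaf limits in 9.

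Most members lay close to the limit. R ranged from -2.12 to -0.60 with a median of -0.69. It was above -0.8 in 168 spots, between -1 and -0.8 in 32, and at -1 or lower in 22. The 3 spots just inside the limit had R of -0.60025, -0.60025 and -0.6005, and the 3 just outside had -0.59975, -0.59925 and -0.59925. A further 129 spots that met the other conditions had an R above -0.6 and at most -0.55, so the set has no natural edge there. Another 1332 spots had 3 of the 4 root values and could not be judged, and 38 of them averaged -0.6 or lower.

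The 4 root arrays did not contribute equally. For 2xR3 over 1x the median member stood at -0.86 in replicate 4 and at -0.61 in replicate 5. For 2xR5 over 1x it stood at -0.77 in replicate 4 and at -0.56 in replicate 5. Replicate 4 was thus the lower for each diploid, while the median of all spots lay between -0.014 and 0 on the same arrays. Of the 222 spots, 216 were below 0 on all 4 arrays and 39 were at or below -0.6 on all 4. Averaged over both spots and both diploids, all 155 clones were below 0 in each replicate, from -2.15 to -0.22 in replicate 4 and from -2.16 to -0.15 in replicate 5.

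**Figure D1:**
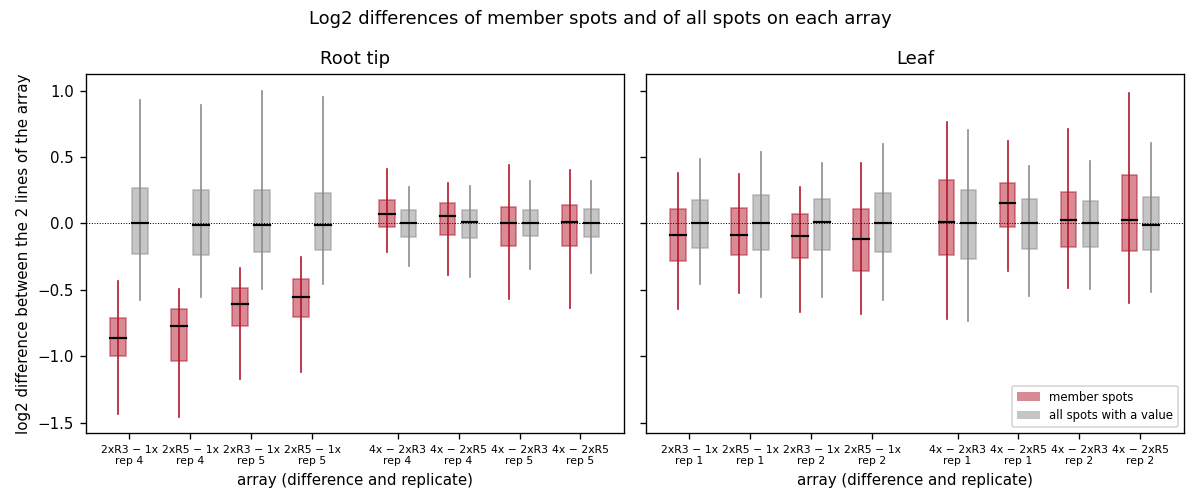
Log2 difference between the 2 lines of each array (y axis) for member spots (red) and all spots with a value (grey), root tip on the left and leaf on the right; boxes span the quartiles, black lines are medians and whiskers run over the central 90% of spots. The members lie low on the 4 arrays that chose them, with medians of -0.86 to -0.56, and near 0 where 4x met a diploid, with medians of 0.0065 to 0.07 in root tips.

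The second spot of a clone gave a technical repeat on the same arrays. It had an R for 193 of the 222 member spots, with a median of -0.67. It was below 0 in 191 of them and at or below -0.6 in 143. The 2 spots of a clone differed in R by a median of 0.048 over the 126 member clones that had both, and by 0.040 over all 7382 such clones. Where 1 spot alone was a member, the other had a median R of -0.55 and ranged from -1.02 to 0.13. For 2 clones the other spot was above 0, so their place in the set rests on 1 spot.

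**Figure D2:**
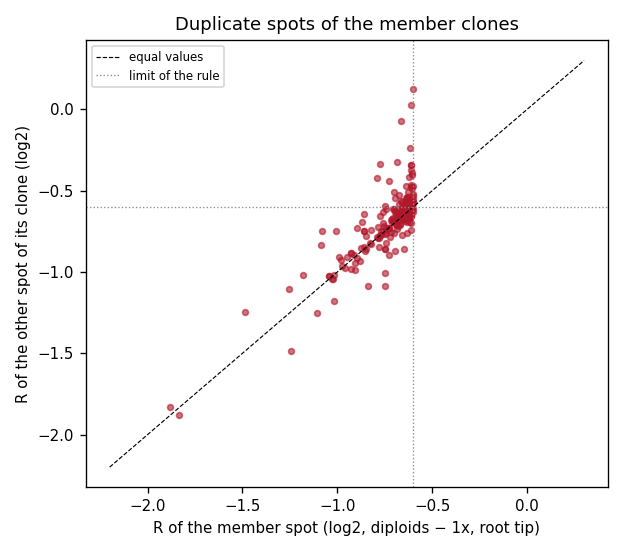
R of each member spot (x axis, log2, mean of the diploids minus 1x in root tips) against R of the other spot of its clone (y axis, log2), with a dashed line of equal values and dotted lines at the limit of -0.6. Of the 193 points, 143 lie at or below the limit on the y axis too, and 2 lie above 0.

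Whether the members are lower in diploids alone was answered by arrays that the rule did not use, those pairing 4x with a diploid. In root tips the tetraploid stood at the diploid level for most members, so the lower level was not a feature of the diploids alone. Of the 153 member clones with a value on every root array, 128 differed by less than 0.2 on the log2 scale between 4x and the mean of the diploids. The share of all clones within 0.2 was not worked out, so 128 of 153 has no background beside it. The median was 0.03, against 0.01 over all 8245 clones tested. The quartiles were -0.057 and 0.093 over the members, and -0.055 and 0.060 over all clones. Steps of 0.3 or more were more frequent in members: 3.27% were higher and 6.54% lower in 4x, beside 0.74% and 2.63% of all clones. The median of the members by replicate was 0.05 in replicate 4 and 0.02 in replicate 5. None of the 153 passed in limma with Benjamini-Hochberg adjustment, at a background of 0% of all clones, and the lowest adjusted p was 0.172. At an unadjusted p under 0.05, 29 of the 153 passed (19%), 15 higher and 14 lower in 4x, beside 7.06% of all clones. These arrays carry RNA of the same diploids that the rule used, and the SE pools the spread of all root arrays, the rule's among them.

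Against the monoploid, 4x was low as well. Since 4x over 1x is the sum of both steps, it shares its 1x samples with the rule and is a description. All 153 clones were lower in 4x than in 1x root tips, from -3.05 to -0.10 with a median of -0.65, and 98 were at or below -0.6. As calls, 136 were lower in 4x in limma, at a background of 15.3%, and 149 were lower in the diploids than in 1x, at a background of 24.4%; both counts follow from the choice. By the arrays that paired 4x with a diploid, and not by these counts, most of the set is described as lower in diploid and tetraploid than in monoploid root tips.

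**Figure D3:**
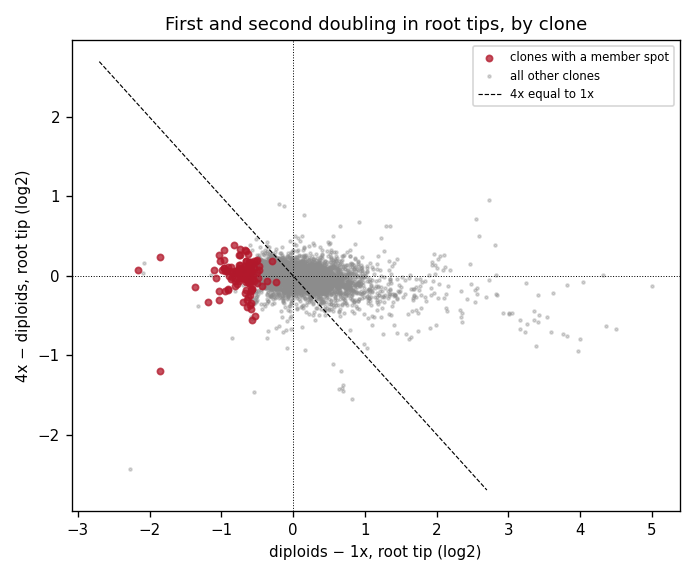
Mean of the diploids minus 1x (x axis, log2) against 4x minus the mean of the diploids (y axis, log2) in root tips, for the 153 member clones (red) and all other clones tested (grey); on the dashed line 4x equals 1x. The member clones lie along 0 on the y axis, with 128 of 153 within 0.2 of it and the clone of spot 145142 at -1.20. Over all clones tested the quartiles on the y axis were -0.055 and 0.060.

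A few clones left this common level. Spot 145142, which has no annotated gene, had the lowest R among clones of which both spots were members, at -1.88 and -1.83 for its 2 spots. Its clone stood at -2.03 and -1.84 for 2xR3 and 2xR5 minus 1x in replicate 4, and at -1.63 and -1.93 in replicate 5. It was lower again in 4x than in the diploids, by -0.80 and -1.53 against 2xR3 and 2xR5 in replicate 4, and by -1.30 and -1.15 in replicate 5. The estimate of -1.20 ± 0.13 (log2, SE, n = 2) did not pass in limma (adjusted p = 0.172), although all 4 arrays were below 0. With arrays scaled to a common spread it passed at -1.93 (limma, adjusted p = 0.045), and so did the clone of spot 161093 at -0.82. In a limma fit without the replicate block the clone of spot 145142 passed at -1.20 (adjusted p = 0.032).

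The other low clones with both spots in the set stayed nearer the diploid level. The clone of spot 142032 had -1.14, -1.08, -0.99 and -0.94 over the 4 arrays of diploid minus 1x, and -0.27, -0.14, -0.20 and -0.17 over the 4 arrays of 4x minus diploid. All 8 of its values were thus below 0, and its 4x minus diploid estimate of -0.19 did not pass in limma (adjusted p = 0.553). The clones of spots 142297, 154289 and 159751 had 4x minus diploid estimates of 0.08, 0.20 and 0.10, and that of spot 136695 stood at -0.14.

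Replicates disagreed for a pair of them. The clone of spot 150469 was higher in 4x than in the diploids in replicate 4, by 0.47 and 0.22, and lower in replicate 5, by -0.93 and -1.09. The clone of spot 137861 had 0.21 and 0.19 in replicate 4 and -0.83 and -0.81 in replicate 5. The sign of the step to 4x was thus opposite in the 2 replicates, while both clones were low on all 4 arrays of diploid minus 1x, at -0.90 or lower. Without replicate 4 their falls in 4x passed in limma, at -1.01 (adjusted p = 0.002) and -0.82 (adjusted p = 8.79e-04), so those calls rest on replicate 5.

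Over all members, the step from the diploids to 4x was above 0 on all 4 root arrays in 21 of 153 clones (13.7%) and below 0 on all 4 in 16 (10.5%). The shares over all 8521 clones with these arrays were 12.2% and 10.9%. At a size of 0.3 or more, 5 member clones were higher and 10 lower in 4x, or 3.27% and 6.54%, beside 0.74% and 2.63% of all clones.

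Most members stood at like levels in both diploid lines, which have equal ploidy. The closed-loop estimate of 2xR5 minus 2xR3 takes equal parts from the arrays with 4x and from the 1x arrays that chose the members, so it is a description. Its median in root tips was 0.05 over the 153 clones, against 0.003 over all clones, and 131 were within 0.2 of 0. The share of all clones within 0.2 was not worked out. At a size of 0.3 or more, 5.23% of members were higher and 1.31% lower in 2xR5, beside 1.49% and 1.29% of all clones. None passed in limma, at a background of 0%, and 10 of 153 had an unadjusted p under 0.05, beside 3.65% of all clones. From the arrays with 4x alone, which the rule did not use, the median was 0.06 in replicate 4. There 98 of 153 clones were above 0 (64.1%), beside 49.8% of all clones. In replicate 5 it was -0.004, with 76 of 154 above 0 (49.4%), beside 49.9% of all clones. The replicates thus gave no common direction, and since the dyes were reversed between them, a constant dye effect cancels only in their mean, which had a median of 0.04. The largest mean, 0.86, was that of the clone of spot 151701, at 0.56 in replicate 4 and 1.17 in replicate 5, whose R of -1.78 came from 1 spot.

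The named genes repeat the common pattern in most cases. One clone of LOC102577790, of spots 139780 and 140624, stood at -0.89 and -0.63 for 2xR3 and 2xR5 minus 1x in replicate 4 and at -0.59 and -0.53 in replicate 5. Its other member clone, of spots 155692 and 156536, stood at -0.86 and -0.62 in replicate 4 and at -0.71 and -0.59 in replicate 5. The 4x minus diploid estimates of both were close to 0, at -0.04 ± 0.09 and 0.01 ± 0.07 (log2, SE, n = 2), and neither passed in limma (adjusted p = 0.967 and 0.989). One more clone of this gene had R of -0.16 and -0.12 and was no member, so the clones of LOC102577790 did not all show the lower level.

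LOC102587142 was even over arrays and LOC102577909 was not. The member clone of LOC102587142 had -0.70 and -0.76 for 2xR3 and 2xR5 minus 1x in replicate 4 and -0.57 and -0.55 in replicate 5, and 4x minus diploids of -0.01 ± 0.07. Another clone of the gene had R of -0.51 and -0.55, just above the limit. The member clone of LOC102577909 had -1.08 and -1.39 in replicate 4, against -0.50 and -0.45 in replicate 5. Its 2 spots agreed, at -0.86 and -0.85, so the gap lay between replicates. Other clones of LOC102577909 had R of 0.32 and 0.47, of -0.37 and -0.35, and of 0.02 and -0.01, which spans both directions, and no leaf value was complete for the member clone.

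LOC102581985 and LOC102584296 stand at the edges of the leaf condition and of the tetraploid level. LOC102581985 was lower in diploid root tips in each of its 3 clones, with R from -0.81 to -0.58 over 6 spots. One of the 6 is a member, with an L of -0.33. The spots with an L outside the limits had L of -0.36, -0.48, -0.47 and -0.42, beyond the lower limit. In leaf the clone of the member spot stood at -0.43 ± 0.14 for diploids minus 1x (log2, SE, n = 3), with an adjusted p of 0.053 in limma. The leaf limits used this contrast, and only leaf replicates 1 and 2 paired 1x with a diploid on an array. The R of LOC102584296 came from 1 spot, as its duplicate and the gene's other clones had none. The member clone of LOC102584296 stood at -0.84 and -0.58 for 2xR3 and 2xR5 minus 1x in replicate 4 and at -0.72 and -0.63 in replicate 5. Unlike the others it was lower again in 4x, by -0.09 and -0.32 against 2xR3 and 2xR5 in replicate 4 and by -0.41 and -0.48 in replicate 5. The estimate of -0.33 ± 0.08 (log2, SE, n = 2) did not pass in limma (adjusted p = 0.424).

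**Figure D4:**
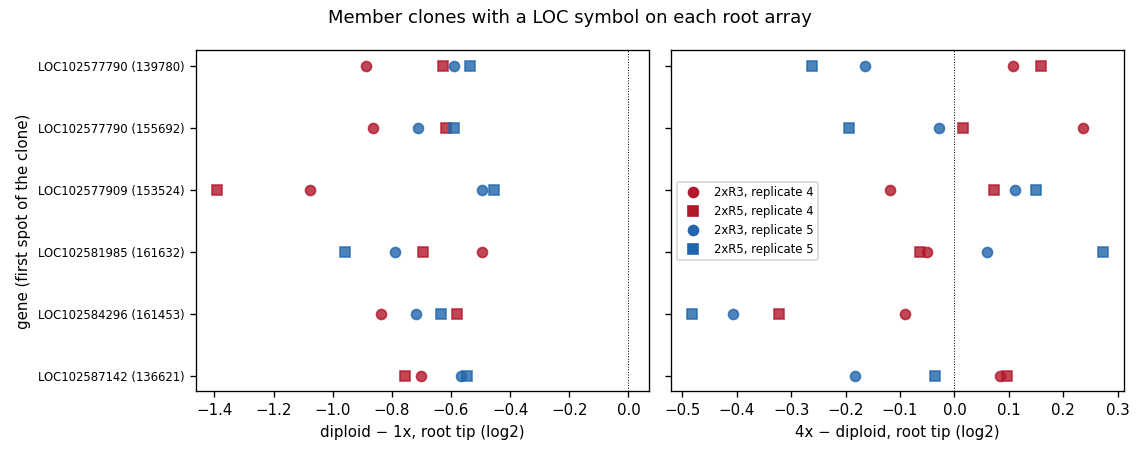
Log2 difference in root tips (x axis) of diploid minus 1x (left) and of 4x minus diploid (right) for the 6 member clones with a LOC symbol (y axis), 1 point per array, with red for replicate 4, blue for replicate 5, circles for 2xR3 and squares for 2xR5. All points on the left lie below 0, and on the right LOC102584296 alone lies below 0 on all 4 arrays, from -0.48 to -0.09.

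In leaf, 132 member spots had an L, with a median of -0.10 and a range of -0.34 to 0.26 inside the limits, and 90 of the 132 were below 0. The other 90 of the 222 had no L (40.5%), a share that the rule raises, since it keeps spots without an L and drops those with an L outside the limits. Among all 271 spots with R at or below -0.6, before the leaf limits, 91 had no L (33.6%), against 22.5% of the 15610 spots with R above -0.6. The median R of the 90 member spots without an L was -0.72, and that of the members with an L was -0.67. For these 90 the leaf level was not measured on all 4 arrays, so the set cannot be called particular to root tips, and 40 had no value on any of the 4. The leaf limits held for spots and not for clones. Over the 88 member clones with a value on every leaf array, diploids minus 1x in leaf ran from -0.93 to 0.24, as a description. Of these, 8 stood at -0.3 or lower (9.09%), beside 7.62% of all clones. At 0.3 or higher there were 0, beside 5.8% of all clones. The leaf limits thin both tails of this contrast, so these shares follow in part from the choice. The members leaned low in leaf as well, with 69 of the 88 below 0. Above 0 were 21.6%, beside 49.3% of all clones, and the median was -0.14, beside -0.003.

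Leaf replicate 3 used arrays and RNA that the rule did not touch. Its dye-swapped pair of 4x and 1x gave a median of -0.04 for the 109 member clones with both values, against -0.002 for all 6749 clones, with 47 members above 0 and 62 below. The members were thus spread to both sides of 0 in this pair of leaf samples, from -0.74 to 0.58. In the same replicate 2xR5 minus 2xR3 had a member median of -0.06, against -0.003 over all clones. Over all leaf replicates, the leaf arrays of the rule included, 40 of 88 member clones passed for 4x minus 1x in limma (45.5%), 17 higher and 23 lower in 4x, at a background of 39.8% (19.9% higher and 19.9% lower), a share close to that of all clones. None of the 88 passed for 2xR5 minus 2xR3 in limma, at a background of 0%. At an unadjusted p under 0.05 there were 8 (9.09%), 1 higher and 7 lower in 2xR5, beside 8.63% of all clones. The members leaned lower in 2xR5, with 59 of the 88 below 0. Above 0 were 33%, beside 52.7% of all clones. At -0.3 or lower stood 4.55%, beside 0.533% of all clones, and at 0.3 or higher 0%, beside 1.35%.

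Members also passed in the step from diploid to tetraploid leaf. Of the 88 member clones with a value on every leaf array, 11 passed in limma with Benjamini-Hochberg adjustment (12.5%), 10 higher and 1 lower in 4x, at a background of 3.3% of 6001 clones (1.95% higher and 1.35% lower). At an unadjusted p under 0.05, 28 of the 88 passed (31.8%), beside 23.5% of all clones. The highest was the clone of spot 145095, which was above 0 on each of the 4 leaf arrays of 4x minus diploid, at 0.54, 1.24, 1.19 and 0.96. Its estimate was 0.89 ± 0.13 (log2, SE, n = 3), with an adjusted p of 0.006 in limma. Of the leaf replicates, only 1 and 2 paired 4x with a diploid on an array. The clones of spots 139258, 148064 and 136794 followed at 0.77, 0.75 and 0.71, then LOC102584296 at 0.58 ± 0.11 (limma, adjusted p = 0.021), with 0.65, 0.44, 0.72 and 0.84 on the single arrays. The 1 lower clone, of spot 161358, stood at -0.28. It had no L for its member spot and -0.46 for the other. No member clone passed without replicate 1 or without replicate 2, where 1 closed loop is left. With replicate 3, which paired 4x with 1x, the estimate also draws on the leaf arrays of the rule. Without it, the estimate rests on the arrays of 4x with a diploid alone, and 17 of 109 passed, 10 of the 11 clones among them. The share over all clones was not worked out for that fit, so 17 of 109 has no background beside it.

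In 8 member clones the step from the diploids to 4x differed between root tip and leaf. Sampling day, replicates and the amplification stated for root RNA went with tissue and cannot be told apart from it. A joint limma fit of both tissues called 8 of 88 (9.09%), at a background of 1.45% of 5121 clones, of which 1.21% were lower in root tips. At an unadjusted p under 0.05, 22 passed (25%), beside 13.7% of all clones. All 8 were below 0 in root tips and above 0 in leaf, and all 8 are among the 11 clones called in leaf. In the clone of spot 145095 the difference, root minus leaf, was -1.28 ± 0.18 (log2, SE; limma, adjusted p = 0.004), with -0.39 in root tips and 0.89 in leaf. In LOC102584296 it was -0.91 ± 0.16 (limma, adjusted p = 0.010), with -0.33 in root tips and 0.58 in leaf. The diploids were lower than 1x in root tips in these clones, by the choice of members, and 4x was lower than the diploids in each but passed in none of the 8. The call was lost in all 8 without replicate 5 and in all 8 without replicate 2. It was kept in all 8 without replicate 3, where the difference uses no array of the rule.

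**Figure D5:**
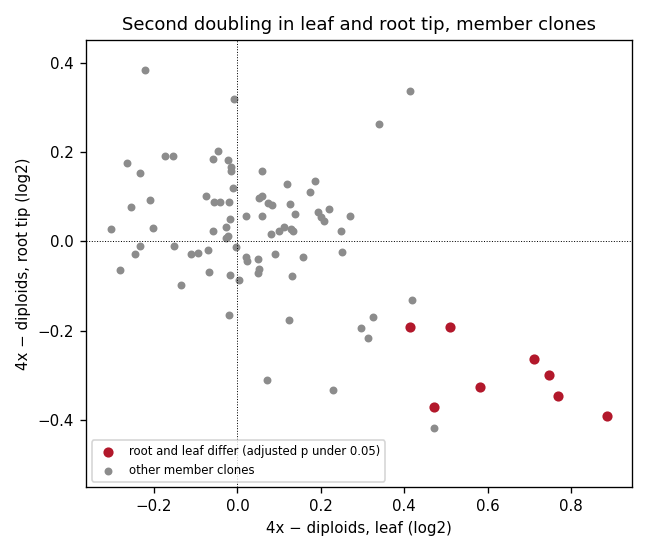
4x minus the mean of the diploids in leaf (x axis, log2) and in root tips (y axis, log2) for the 88 member clones measured in both tissues, 1 point per clone. The 8 clones in which the step differed between tissues (red) lie at 0.41 to 0.89 in leaf and at -0.39 to -0.19 in root tips.

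Genes with a standing name that met the same R and L limits were few, 5 spots in all, and lie outside the set by their symbols. SHMT, serine hydroxymethyltransferase of one-carbon metabolism, had 1 spot with R of -0.65, no L, and a 4x minus diploid estimate of 0.03. RGGA, named after an RNA-binding protein, had R of -0.64 with L of -0.03 and 4x minus diploids of -0.03. ADH1, an alcohol dehydrogenase of fermentation, had R of -2.49 with L of 0.12 in 1 spot, and -2.06 with an L of 0.40 in the other. Its 4x minus diploid estimate was -2.43, which did not pass in limma (adjusted p = 0.113). The other 2 spots, of 1 clone, had R of -1.37 and -1.29, L of -0.09 and -0.10, and a 4x minus diploid estimate of -0.38 (limma, adjusted p = 0.807). They carry 4 symbols, among them that of a photosynthesis gene, and cannot be assigned to a single gene.

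Beside the members, chosen lists of genes with standing names gave these counts for diploids minus 1x in root tips (limma, adjusted p under 0.05), where 20.9% of all clones were higher and 24.4% lower. Of the 2 green tissue clones, both of the photosystem II gene PSBR, none passed, at -0.22 and 0.03. That list rests on 1 gene, and the clone with 4 symbols described above, 1 of them of a photosynthesis gene, had R of -1.37 and -1.29, so green tissue genes cannot be said to have stayed level. Of the 2 clones for dividing cells, D-type cyclins, both were higher, CYCD3.2 at 0.30 and CYCD3.3 at 0.38. Both auxin-response clones were higher, IAA2 at 0.73 and IAA3 at 0.50. Of 2 fermentation clones 1 was lower, ADH1, and LDH-2 stood at -0.07. Of 5 glycolysis clones 1 was lower, and of 13 amino acid clones 4 were higher and 1, SHMT, lower. Of 6 membrane transport clones 2 were higher and 1 lower. Most of the glycolysis clones were of GAPDH and most of the amino acid clones of METK1, so clones of a list are not separate genes. Measured were 2 of 3 fermentation genes, 2 of 4 for glycolysis, 5 of 5 for amino acids and 4 of 5 for membrane transport. None of the listed clones passed for 4x minus diploids. No array held both tissues, so root tip and leaf levels of the markers were not compared, and the part of cell composition in the members' values was not tested.

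Dye and print position were set beside the members' values. In each closed loop of root arrays every line carried each dye once, so the mean of its 4 deposited ratios is the dye effect of a clone. It had a median of 0.002 in replicate 4 and 0.008 in replicate 5 over the members, and 0.002 and 0.004 over all clones. Single members ranged from -0.43 to 0.29 in replicate 4 and from -0.46 to 0.27 in replicate 5. The central 95% of all clones, a narrower measure than a full range, ran from -0.12 to 0.11 and from -0.14 to 0.12. In each root replicate 1x met the diploids once in each dye, and so did 4x. A constant dye effect of a clone thus cancels in R and in 4x minus the mean of the diploids. Member spots lay in all 48 blocks of the inferred print layout, with 1 to 10 per block and a median of 4.5. Spots with a value numbered 17128 to 17829 per root array and 12403 to 18629 per leaf array. The number of arrays limits the precision, and the median SE of a member's 4x minus diploid estimate in root tips was 0.09.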

How the data were processed

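The values are log2 ratios between both dyes, 1 per spot and array, taken as the authors deposited them. For upstream work limma is named, per the submitters' processing notes; its version, background correction and within-array method are not given in the sources used here. The median of every array was within 0.014 of 0. No spot intensities were used here, so dim spots could not be examined.

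Duplicate spots were paired from a print layout that was inferred, as the sources used here do not document it. Its offsets were taken from the 905 accessions that have 2 annotated spots. The 1728 spots outside such pairs held no value. Spots of a clone that had values were averaged. The platform annotation, which can be old, listed 1 symbol at 1630 spots, more than 1 at 180 and no symbol at 30638.

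Within each closed loop least squares turned the 4 ratios into 1 value per line. limma 3.58.1 under R 4.3.3 (lmFit, then eBayes) took these line values with terms for line and for replicate, used as a block because no ratio spans replicates. Both swapped pairs of leaf replicate 3 had a block each. Root and leaf had separate fits (residual degrees of freedom 3 and 5), over clones with a value on every array of the tissue; a joint fit tested differences between tissues. Benjamini-Hochberg adjusted p under 0.05 over all clones of the fit was the threshold. The fit was tested on simulated data.

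The members and lists were chosen with earlier results of these data known. Named clones are those with a LOC symbol, up to 8 without one that had the lowest R with both spots in the set, up to 5 in each direction past the threshold in a comparison the rule did not use, the 3 spots on each side of the limit, and genes with another symbol inside the limits. Spots 161093, 151701, 135436, 154028 and 155837 were named after their values were seen. Alternatives left out each replicate, the block or single spots, scaled the arrays, and moved the limits.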

Additional observations from a re-analysis of the deposited data

Results flagged for a closer look

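The step from the diploids to 4x differed between root tip and leaf in 8 member clones, by the test of the difference in a joint limma fit (Benjamini-Hochberg adjusted over 5121 clones). The difference, root minus leaf on the log2 scale, was -1.28 for the clone of spot 145095, -1.11 for that of spot 139258, -1.04 for that of spot 148064 and -0.97 for that of spot 136794. It was -0.91 for LOC102584296, -0.84 for the clone of spot 135436, -0.70 for that of spot 154028 and -0.61 for that of spot 155837. The adjusted p ranged from 0.004 to 0.021. In the dye-swapped leaf pair of replicate 3, on other arrays, 4x minus 1x was above 0 in all 8, from 0.09 to 0.39. Of all 6749 clones with this pair, 3333 were above 0. That pair also enters the leaf estimates of the fit that called the 8, and it shows another difference. Its values are thus a description and no separate support. Sampling day, replicates and the amplification of root RNA cannot be told apart from tissue in the differences above.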

How the results depend on the processing

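The size of the set depends on its limits. It held 500 spots at R of at most -0.5 and 54 at -0.8, 132 with a leaf value required, 56 with arrays scaled to a common spread (53 of them members), and 182 to 507 with 1 root replicate left out (102 members without replicate 4, 198 without replicate 5). The rule on clone means gave 111 clones, of which 106 are among the 155, and both spots were members in 67. In root tips the count of members called for 4x minus diploids, 0 as reported, was 2 with scaled arrays, 1 in the fit with no replicate block, and 0 to 2 with a replicate left out. The median over members was -0.0104 to 0.0688 there. For 4x minus diploids in leaf, 11 as reported, it was 0 to 17 with a replicate left out and 5 of 38 over clones with both spots in the set, which are fewer clones; this last choice was made after seeing the data. The tissue difference, 8 as reported, was called in 15 with scaled arrays, with all 8 among them, and in 0 to 11 with a replicate left out. Of the 15 with scaled arrays, 12 were lower and 3 higher in root tips than in leaf. Shares over all clones were not worked out for the alternatives, so their counts have no background beside them. The causes were not tested. For 2xR5 minus 2xR3 the count was 0 under each alternative run, in both tissues, and the replicate block, present by construction, changed no other call count by over 1.5 times. With 1 root loop left, the spread came from the leaf samples, over clones measured in both tissues. For 4x minus diploids in root tips, all 39 alternative fits of the member clones with a LOC symbol stayed short of the threshold; LOC102584296 lost its leaf call without replicate 1 or 2 and its tissue call without replicate 2 or 5.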
